A study of Saccharomyces cerevisiae with 2 samples.

Results

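The Slt2 cascade is the signalling pathway that budding yeast uses to sense damage to its cell wall, and its transcripts were followed here through the genes MID2, MTL1, RHO1, PKC1, MKK2, SLT2, KDX1, PTP2, SWI4 and SWI6. These 10 genes were taken by open reading frame name from the 6207 yeast genes on the array. The rule that defines them uses names alone, but they were picked with earlier results of these data known. The samples were 2 two-colour DNA microarrays of an S. cerevisiae msn2/4 mutant, whose name points to MSN2 and MSN4, which encode transcription factors of the general stress response. The zymolyase cells had received 5 units per ml of Zymolyase 100T, an enzyme preparation that digests wall glucan, and the untreated cells were the other part of the same culture; both parts carried the mutation, grew in YEPD (rich medium) at 24 °C and were collected at 3 hours. The strain background and the alleles are not given in the sources used here, and no wild-type culture is analysed here. MSN2 and MSN4 had no ratio on either array, and with mutant RNA in both channels the arrays hold no check of the mutation.

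Mid2 and Mtl1 are sensor proteins of the plasma membrane that reach into the wall, and when the wall is stretched or weakened they help to load the small GTPase Rho1 with GTP. Rho1 activates the protein kinase Pkc1, which switches on a chain of kinases, Bck1, then the paired kinases Mkk1 and Mkk2, then the MAP kinase Slt2 (also called Mpk1). Slt2 acts on the transcription factor Rlm1 and on SBF, the complex of Swi4 and Swi6, and the tyrosine phosphatase Ptp2 takes phosphate off Slt2 again. SLT2 and its paralog KDX1 (also called MLP1) are themselves known Rlm1 target genes, so the pathway's output includes some of its own parts. Arrays measure transcript ratios and not the phosphorylation by which the signal travels.

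Array 1 carried zymolyase RNA in Cy3 and untreated RNA in Cy5, and array 2 carried both RNAs with Cy3 and Cy5 exchanged. The design text gives 1 culture, while the text of each sample speaks of several; by the design text the arrays are technical repeats of 1 pair of RNA extracts and count as 1 replicate, so no test between zymolyase and untreated cells was possible. Each SD below is over 2 hybridisations and leaves out the spread between cultures. RNA came from whole cultures, so a change in every cell and a larger change in some cells cannot be told apart. The deposited log2 ratios had medians of -0.38 on array 1 and 0.40 on array 2; how they were centred, which condition is the numerator and why many genes have no ratio are not given in the sources used here.

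Because the dyes were exchanged, the sign of array 2 was turned before the arrays were averaged, and positive ratios are read as likely zymolyase over untreated. Both choices lean on earlier knowledge: the turn was made with the values of strongly shifted wall genes in view, SLT2 and KDX1 among those genes, and the numerator follows published induction of wall integrity transcripts by zymolyase. The direction given for SLT2 and KDX1 and the matching signs on the arrays are thus assumed, and only the sizes on each array stand apart from those choices. The rounding of the values shows that the deposited array 2 column is itself the negative of a log ratio first computed: of ratios under -2, 239 of 239 were log2 of a whole multiple of 0.0001 once turned, against 3 of 40 as deposited. The authors may therefore have turned array 2 already, which would make the turn here wrong, and every mean rests on it. Across 2254 genes with both ratios, 39.8% had the same sign on both arrays after the turn (r = -0.19 across genes, which are not independent). Most genes thus had opposite signs after the turn and the same sign as deposited, where r is positive. The reason was not tested. If untreated RNA is the numerator, all signs given here turn round.

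A ratio on both arrays was available for 4 of the 10 genes, MID2, RHO1, SLT2 and KDX1, against 36.3% of all genes. PTP2 had a ratio on array 1 alone and PKC1 on array 2 alone. MTL1, MKK2, SWI4 and SWI6 had none, as had 50.2% of all genes, so nothing can be said of one sensor, of the kinase just above Slt2 or of SBF. With the turn, SLT2 and its paralog KDX1 had larger means than the sensor MID2 and the GTPase RHO1. With array 2 as deposited KDX1 had the lowest mean of the 4, at 0.24. A gene was called positive when both arrays had a positive ratio and the mean reached 2-fold, which is 1 on the log2 scale. By that rule 3 of the 4 were positive, SLT2, KDX1 and MID2, against 2.88% of all genes with both ratios. None was negative, against 13.6% of all genes. The turn was chosen with SLT2 and KDX1 in view, so these counts are no independent evidence. With array 2 left as deposited the 4 genes had opposite signs on the arrays, and 0 of 4 could pass.

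**Figure D1:**
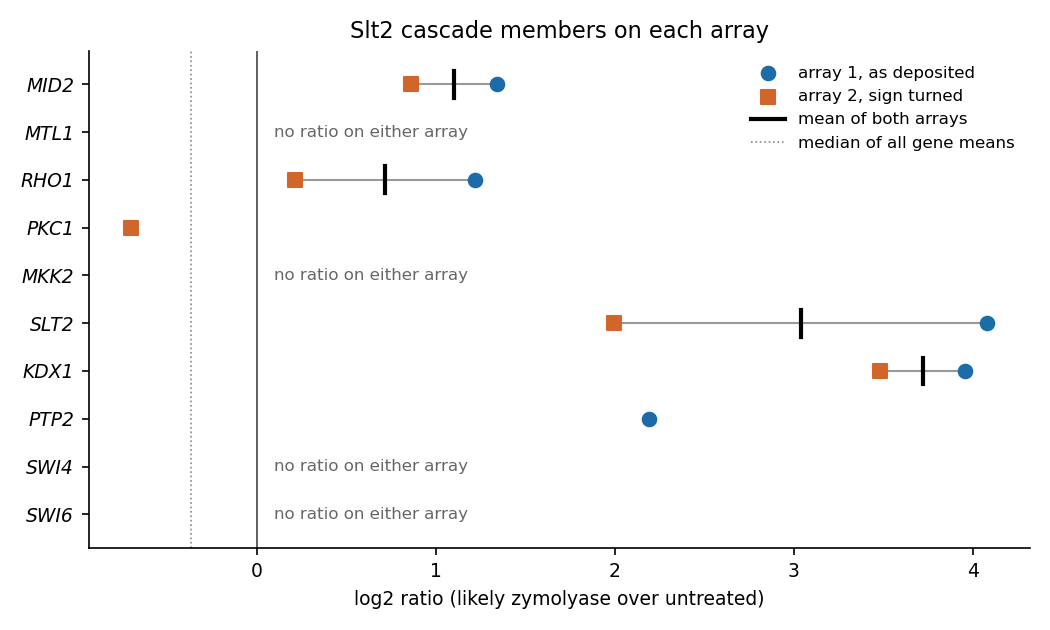
Log2 ratio of each cascade gene (horizontal axis) on array 1 as deposited (circles) and on array 2 with its sign turned (squares), with the mean of both as a bar and the median of all gene means as a dotted line. KDX1 had 3.96 and 3.48, close together, while SLT2 had 4.08 and 2.00, and 4 genes had no ratio.

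Among the sensors, MID2 (YLR332W) had a log2 ratio of 1.35 on array 1 and 0.86 on array 2 after the turn (-0.86 as deposited). The mean was 1.10 ± 0.34 (SD, n = 2 arrays), or 2.15-fold, and 2.80% of genes had a higher mean. MID2 thus lay just inside the limit on the mean, above 2-fold on array 1 and below it on array 2. With array 2 as deposited the mean was 0.24. In the RefSeq gene table MID2 overlaps JIP3 (YLR331C), a reading frame on the other strand that had no ratio, and the sources used here do not say whether the array keeps the strands apart.

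RHO1 (YPR165W), the GTPase that also serves as regulatory subunit of glucan synthase, had 1.22 on array 1 and 0.22 on array 2 after the turn (-0.22 as deposited). Its mean of 0.72 ± 0.71 (SD, n = 2 arrays), or 1.64-fold, lay just outside the limit. The SD was about as large as the mean, since RHO1 was 2.33-fold on array 1 and 1.16-fold on array 2. With array 2 as deposited its mean was 0.50. Centring each array on its median brought the mean to 1.11, past the limit.

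PKC1 (YBL105C), the kinase that Rho1 activates, had a single ratio, -0.70 on array 2 after the turn (0.70 as deposited), below the array's own median of -0.40. On that array 63.3% of genes had a higher ratio, so PKC1 sat within the bulk of the genes. With no ratio on array 1 a dye effect in that value could not be balanced.

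SLT2 (YHR030C), the MAP kinase, had 4.08 on array 1, the position 2 from the top of 2428 genes there. On array 2 it had 2.00 after the turn (the same size below 0 as deposited), position 42 of 2918 genes. The mean was 3.04 ± 1.47 (SD, n = 2 arrays), or 8.21-fold, and 0.266% of genes had a higher mean. Array 1 set much of that size, with 16.9-fold on array 1 and 3.99-fold on array 2. The quartiles of all genes were also wider apart on array 1 (-1.45 and 0.53) than on array 2 after the turn (-1.03 and 0.28). With array 2 as deposited the mean of SLT2 was 1.04.

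KDX1 (YKL161C), a pseudokinase paralog of SLT2 that lacks key catalytic residues, had 3.96 on array 1 and 3.48 on array 2 after the turn (-3.48 as deposited). It stood at position 4 of 2428 genes on array 1 and at position 7 of 2918 on array 2, so with the turn both hybridisations placed it among their most positive genes. The mean was 3.72 ± 0.34 (SD, n = 2 arrays), or 13.2-fold. With array 2 as deposited the same values gave a mean of 0.24, because 2 ratios of like size then cancelled.

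PTP2 (YOR208W), the phosphatase that acts on Slt2 and on the osmotic stress kinase Hog1, had 2.19 on array 1, or 4.57-fold, and no ratio on array 2. On array 1 1.81% of genes had a higher ratio, and PTP2 came after SLT2 and KDX1 and before MID2 and RHO1. Its value does not depend on the turn of array 2, but it does hold any dye effect of array 1. On array 1 alone 5 of 5 cascade genes with a ratio were at least 2-fold positive, against 12.2% of all genes there, and 0 were 2-fold negative, against 35.4%. On array 2 alone 2 of 5 were, SLT2 and KDX1, against 9.29% of all genes there, and again 0 were negative, against 25.9%. As deposited, array 2 has SLT2 and KDX1 as 2 of 5 negative genes, against 9.29%, and 0 of 5 positive, against 25.9%. With the turn, SLT2 and KDX1 were the 2 of 4 that reached 2-fold on each array, against 1.69% of all genes with both ratios in the positive and 4.61% in the negative direction. The cascade genes were picked with earlier results of these data known. These counts, those on array 1 alone included, are therefore no independent evidence.

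**Figure D2:**
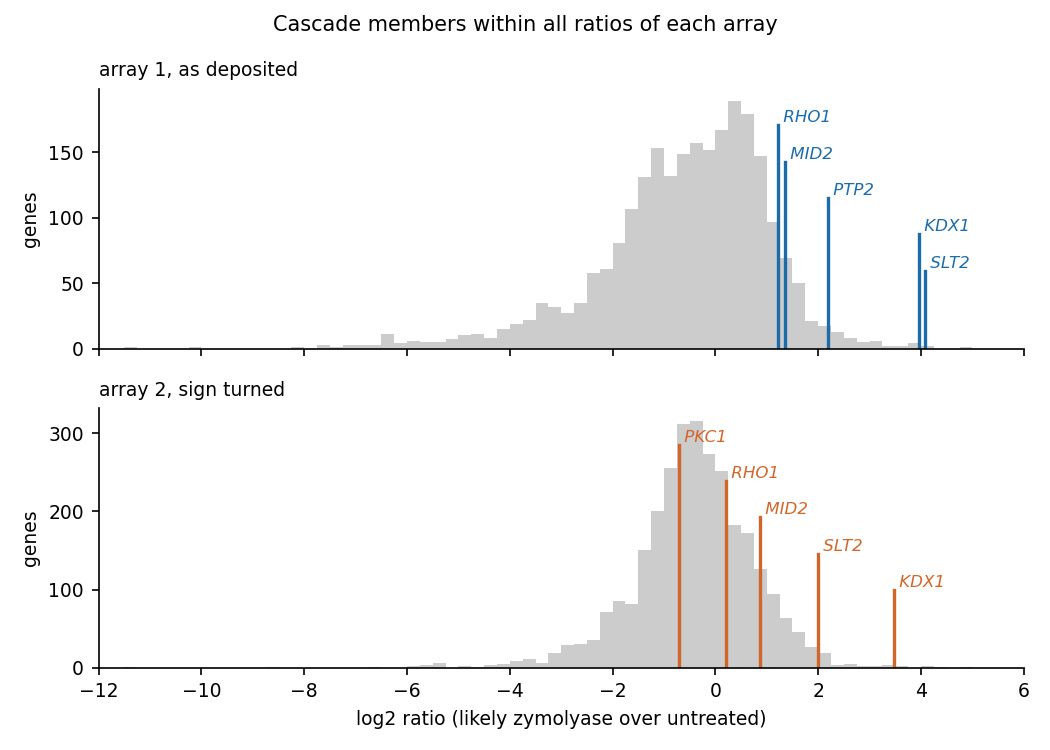
Number of genes (vertical axis) by log2 ratio (horizontal axis) on array 1 as deposited (upper panel) and array 2 with its sign turned (lower panel), with lines at the cascade genes. SLT2 and KDX1 lay in the upper tail of both arrays, while RHO1 on array 2 (0.22) and PKC1 (-0.70) lay among the bulk of the genes.

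The order of the 4 genes was KDX1, SLT2, MID2 and RHO1 by their means, but neighbours in it were not all apart. Without the turn the order was SLT2 (1.04), RHO1 (0.50), MID2 (0.24) and KDX1 (0.24), so KDX1 then came last. The differences that follow use the turned array 2, and those on array 2 change sign if it is left as deposited. KDX1 minus SLT2 was -0.12 on array 1 and 1.49 on array 2, so the arrays ordered the paralogs differently. SLT2 exceeded MID2 on both arrays, by 2.73 on array 1 and 1.13 on array 2, which is larger than the SD of MID2 and, on array 2, smaller than that of SLT2. KDX1 exceeded MID2 by 2.61 on array 1 and 2.62 on array 2. MID2 exceeded RHO1 by 0.13 on array 1 and 0.65 on array 2, differences smaller than the SD of RHO1. With the turn, SLT2 and KDX1 lay above MID2 and RHO1 on each array; as deposited, they lay below them on array 2.

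In the plane of the 2 array ratios, the genes nearest to SLT2 were PUN1, SMF1 and GFA1. PUN1, a plasma membrane protein with a part in wall integrity, lay 0.46 log2 units away, SMF1, a divalent metal ion transporter, 0.48, and GFA1, which starts the synthesis of the chitin precursor, 0.72. PUN1 had 3.87 on array 1 and 1.59 on array 2 after the turn, and SMF1 had 3.68 and 1.73. Both were picked by these values, so sizes like those of SLT2 follow from the choice. The genes nearest to KDX1 were CRG1, a methyltransferase, at 0.60, PIR3, a covalently bound wall protein, at 0.82, and SED1, a wall glycoprotein, at 1.04. A likeness over 2 arrays of 1 pair of extracts is a description only.

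**Figure D3:**
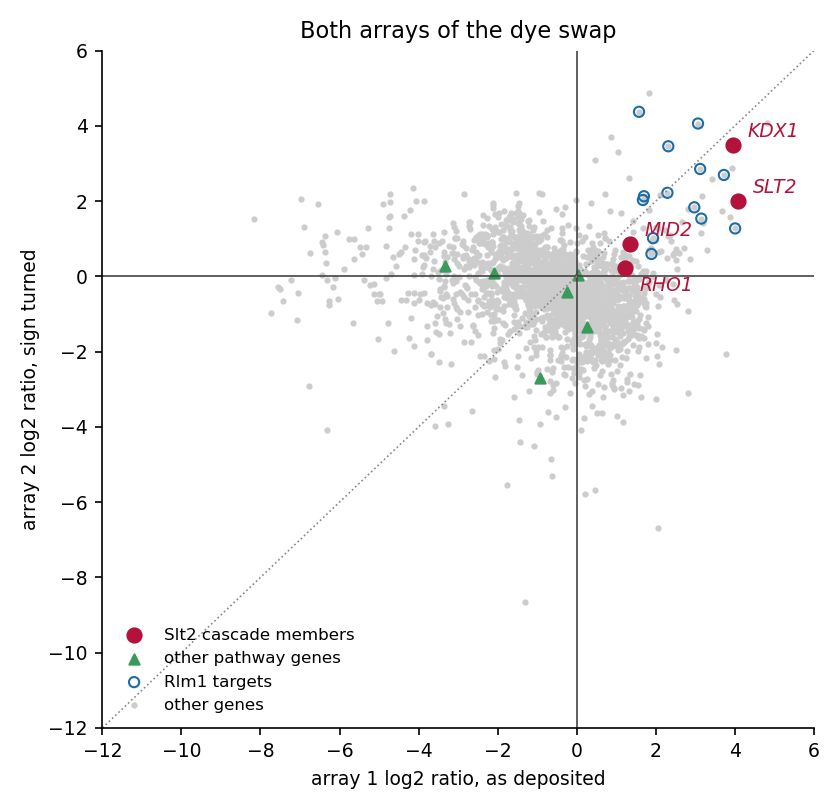
Log2 ratio on array 1 as deposited (horizontal axis) against array 2 with its sign turned (vertical axis) for genes with both ratios; filled circles are cascade genes, triangles other pathway genes, open circles Rlm1 targets, grey dots other genes, and the dotted line marks equal ratios. KDX1 lay near the line of equal ratios, SLT2 below it (4.08 and 2.00), and the 13 Rlm1 targets were, with the 4 cascade genes, positive on both arrays.

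Of 24 other pathway genes 6 had both ratios, all with means below those of the 4 cascade genes after the turn. With array 2 as deposited that order did not hold. None of the 6 was positive by the rule, against 2.88% of all genes, and 1 (16.7%) was negative, against 13.6%, so both counts are near the background. The negative gene was SMI1, a regulator of wall synthesis that binds Slt2. It had -0.92 on array 1 and -2.71 on array 2 after the turn (2.71 as deposited), a mean of -1.81 ± 1.27 (SD, n = 2 arrays). As deposited its mean was 0.89, above RHO1 (0.50), MID2 (0.24) and KDX1 (0.24) but below SLT2 (1.04). The median of the 6 means was -0.77, with a range of -1.81 to 0.030, against a median of 2.07 for the 4 cascade genes and of -0.37 for all genes. From 1 array alone it was -0.25 on array 1 and -0.12 on array 2, above the medians of all genes there, -0.38 and -0.40, so its side of the all-gene median was not settled. ROM1, an exchange factor that loads Rho1, had -2.10 and 0.092 on arrays 1 and 2, and ZEO1, a protein associated with Mid2, had -3.34 and 0.29. Both means were past 2-fold, but the signs differed between the arrays after the turn. As deposited each gene had the same sign on both arrays, with means of -1.10 for ROM1 and -1.81 for ZEO1. Both genes were chosen for mention after their values were seen.

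The parts of the cascade between Rho1 and Slt2 were mostly not measured. BCK1, the kinase between Pkc1 and Mkk2, had 0.38 on array 2 alone after the turn (-0.38 as deposited), and MKK1 had no ratio. Among sensors WSC1 (SLG1 in RefSeq) had -0.25 on array 1 and -0.41 on array 2 after the turn (0.41 as deposited), beside the positive ratios of MID2 after the turn. WSC2, WSC3 and WSC4 had none. Among phosphatases of Slt2, PTP3 had 0.032 and 0.027 on arrays 1 and 2, MSG5 had 0.42 on array 1 alone and SDP1 1.00 on array 2 alone, beside 2.19 for PTP2 on array 1. These genes were named to set them beside cascade genes of the same role, after their values were seen.

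Downstream, the Rlm1 target list comprised 14 wall genes on the array, of which 13 had both ratios. All 13 were positive by the 2-fold rule on the mean, against 2.88% of all genes with both ratios, though not every one reached 2-fold on each array. Their means had a median of 2.41 and a range of 1.25 to 3.57. The means of SLT2 (3.04) and KDX1 (3.72) lay in the upper part of that range and above its top. YPS3, a surface aspartyl protease, led the list with 3.07 on array 1 and 4.07 on array 2, followed by PIR3 with 3.73 and 2.70, SED1 with 3.13 and 2.86, and NCW2, a wall protein, with 1.58 and 4.38. These are the wall genes from which the turn was chosen, so their count and their shared sign are no independent evidence. The list median was 0.13 with array 2 as deposited.

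Of 12 SBF targets 4 had both ratios, with a median of -0.10. By the rule 1 (25.0%) was positive, against 2.88% of all genes with both ratios, and 1 (25.0%) was negative, against 13.6%. SVS1, a wall protein, was positive at 1.54 ± 1.31 and HO, the mating-type switching endonuclease, negative at -1.30 ± 0.39 (SD, n = 2 arrays each). Of Rho1's other effectors 2 of 5 had both ratios. After the turn neither was positive, against 2.88% of all genes with both ratios, or negative, against 13.6%. The transcription factor SKN7 had 0.13 ± 0.31 and the glucan synthase subunit GSC2 -0.018 ± 2.19, with opposite signs on the arrays for both after the turn. As deposited their signs were the same: GSC2 had 1.53 on array 1 and 1.56 on array 2, and SKN7 0.35 and 0.083. Their means were then 1.55 for GSC2 and 0.22 for SKN7.

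Among genes of other MAP kinase modules 3 of 10 had both ratios, with a median of 0.49. After the turn KSS1, the MAP kinase of filamentous growth, was positive, 1 of the 3 (33.3%), against 2.88% of all genes with both ratios. None was negative, against 13.6%. KSS1 had 1.84 on array 1 and 0.70 on array 2 (-0.70 as deposited), a mean of 1.27 ± 0.81 (SD, n = 2 arrays). HOG1, the osmotic stress MAP kinase, had 1.22 on array 1 and -0.36 on array 2 after the turn (0.36 as deposited). With the turn SLT2 exceeded both on each array, at 4.08 and 2.00. As deposited SLT2 lay below both on array 2. PBS2, the kinase that activates Hog1, had 0.75 and 0.23 after the turn and did not pass. HOG1 and PBS2 were chosen for mention after their values were seen.

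**Figure D4:**
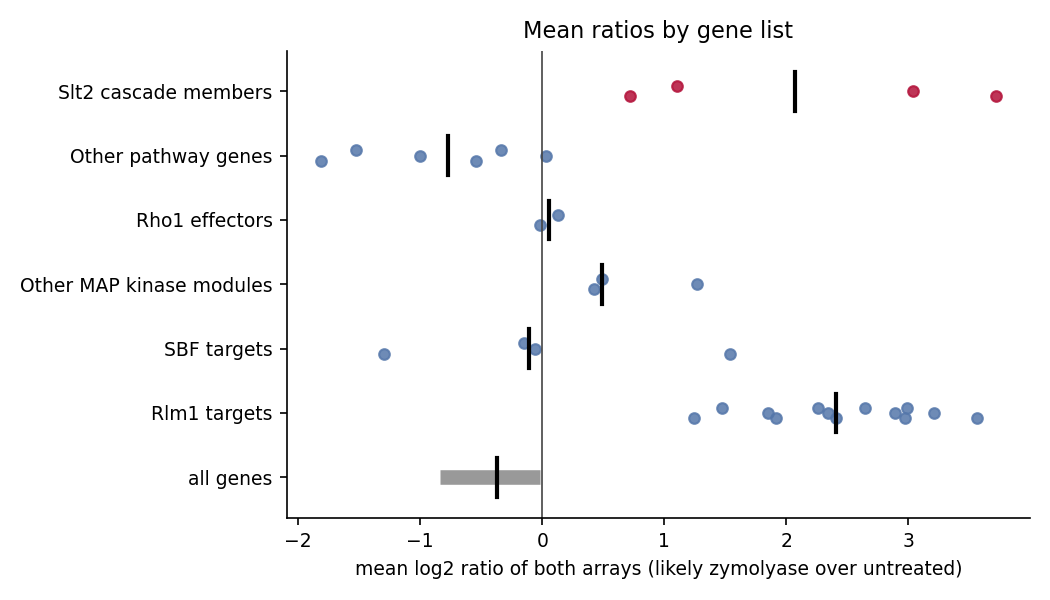
Mean log2 ratio of both arrays (horizontal axis), with array 2 turned, for each gene with both ratios (dots) in the cascade and in 5 other lists, with list medians as bars; the lowest entry is the range between quartiles and the median of all genes. The cascade genes spanned 0.72 to 3.72, the other pathway genes -1.81 to 0.030 and the Rlm1 targets 1.25 to 3.57.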

How the data were processed

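The authors deposited 1 table with a log2 ratio per gene and array; scanner, background correction, normalization and filter are not given in the sources used here. The log base was checked on the deposited log2 values: each of the 387 array 1 ratios under -2 equalled log2 of a whole multiple of 0.0001 (within rounding to 4 decimals), and so did each of 239 on array 2 once turned, but only 3 of its 40 as deposited. Of 6209 rows 2 were control spots. Symbols came from RefSeq (R64) for 5654 of the 6207 genes. No spot intensities were used here, so the signal behind a ratio, and with it the precision of low ratios, is unknown; the number of arrays limits precision.

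Means, SDs, ranks and counts were computed with Python 3.11.15, numpy 2.4.6 and pandas 2.3.3. The code for the averaging and the 2-fold rule was tested on simulated dye swaps. These were built so that array 2 needed the turn, so they cannot say whether the turn is right for the deposited values. The cascade genes and the other 5 lists were chosen with earlier results of these data known. By rule the text names all cascade genes, up to 4 passing genes of each other list (those with the largest means) or 2 where none passed, and the 3 genes nearest to SLT2 and to KDX1; other genes are marked as chosen after their values were seen. Alternatives were centring, rescaling, array 2 as deposited, 1 array alone, a 1.5-fold limit and 2-fold on each array. Sequences are not shown here.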

Additional observations from a re-analysis of the deposited data

How the results depend on the processing

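With array 2 as deposited, a reading the values do not settle, 0 of 4 cascade genes were positive in place of 3, against 12.3% of all genes. Their median was 0.37 in place of 2.07, and PKC1 had 0.70 in place of -0.70. The other pathway genes had 2 negative genes of 6 in place of 1, against 13.7% of all genes. Their median was 0.041 in place of -0.77. All these changes follow from the change of sign. From 1 array alone, positive cascade genes ranged from 2 of 5 on array 2, against 9.29% of all genes, to 5 of 5 on array 1, against 12.2%. Their median ranged from 0.86 to 2.19. Other pathway genes gave 2 negative of 7 on array 1, against 35.4% of all genes, and 2 of 10 on array 2 after the turn, against 25.9%. Their median was -0.25 on array 1 and -0.12 on array 2. The Rho1 effector median ranged from -0.82 to 0.81 and the SBF target median (-0.10) from 0.12 to 0.16, over the genes with a ratio on that array. Centring made the SBF target median 0.28, and centring with rescaling 0.43, while the median of all genes moved by more than 0.1, to 0.022 and 0.026 in place of -0.37. Over all genes the positive and negative counts (65 and 307) were 122 and 161 after centring, 118 and 163 after rescaling as well, and 277 and 309 with array 2 as deposited. Centring, without and with rescaling, made 4 cascade genes positive, RHO1 the added one, against 5.41% and 5.24% of all genes. Requiring 2-fold on each array left 2 cascade genes positive, SLT2 and KDX1, against 1.69% of all genes. It left 0 of 6 other pathway genes negative, against 4.61% of all genes. A 1.5-fold limit gave 4 positive cascade genes of 4, against 4.84% of all genes. No cascade gene was 2-fold negative under these alternatives, array 2 alone being read with its turn. No paired analysis was possible because both arrays hold 1 pair of extracts.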

Other observations

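KDX1 has wall genes as neighbours. In the RefSeq gene order PIR3 lies 2 places and PIR1 3 places from KDX1 on the same side, with YKL162C, which had no ratio, between KDX1 and PIR3. PIR3 had 3.73 on array 1 and 2.70 on array 2, and PIR1, a wall protein of the same repeat family, 1.93 and 1.02, beside 3.96 and 3.48 for KDX1. On the other side ELF1, a transcription elongation factor, had -3.07 and 1.02. Of the 60 protein-coding genes within 3 places of the cascade genes 22 had both ratios; 2 were positive by the 2-fold rule, against 2.88% of all genes, and 2 were negative, against 13.6%. The positive ones were PIR3 and PIR1, and the negative ones UME1, next to MKK2 (-3.12 ± 0.66), and RET1, next to PTP2 (-1.66 ± 0.71; SD, n = 2 arrays). These neighbours were looked at after their values were seen, and the signs rest on the turn of array 2. PIR3 and PIR1 are among the wall genes from which that turn was chosen, so their calls are no independent evidence.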
